A study of Mus musculus with 4 samples.

Results

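CTCF is a zinc finger protein that binds a long, asymmetric DNA motif, so each site points along 1 strand. It halts the cohesin complex as it extrudes chromatin loops, and loops tend to form between sites whose motifs point at each other, which is called the convergent orientation. CTCF sites also occur in clusters, as at the imprinted H19 and Igf2 locus and in the protocadherin arrays, and a cluster can hold sites on the same strand or on opposite strands.

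Neighbouring CTCF peaks were described here in the left cerebral cortex of female B6CASTF1/J mice, the F1 hybrid of C57BL/6J and CAST/EiJ, taken as adults of 2 months. Chromatin immunoprecipitation with a CTCF antibody was followed by sequencing, and no treatment was labelled. The 4 libraries came from 2 pools of tissue, pool I and pool J, with 2 technical libraries of each pool and 4 cortex biosamples in each pool. The pools were the biological replicates (n = 2), and each value of a pool merges its animals, its libraries and both parental alleles.

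The peaks came from the authors' conservative list, which keeps peaks found in both pools at an irreproducible discovery rate (IDR) of at most 0.05. A peak was selected on its position alone: it had to lie on an autosome, be an interval with a single summit, and have the nearest summit of another interval at most 2000 bp away. The rule found 6502 of 42960 autosomal intervals with a single summit, in a list of 44672 rows in all. Of the rows not eligible, 494 belonged to intervals with several summits and 1224 lay on chromosome X. No filter on low values was applied, so every member was measured. Adjacent members formed 3408 pairs, which held 6464 of the members. The other 38 members had as their nearest summit a peak that could not itself be a member.

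No test was run on these peaks, because the positions that chose them came from the same lists. Shares are given with exact (Clopper-Pearson) 95% intervals, which cover counting error only, and adjacent peaks are not independent. In bulk tissue, fewer cells bound at a site and less CTCF per cell cannot be told apart, and neither can 2 summits bound together and 2 summits bound in different cells. The peak lists hold no expression values, so the cell types in the tissue were not checked.

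Pairs of strong peaks show what 2 neighbouring sites look like. The motif learned from isolated peaks had the consensus GTGGCCACCAGGGGGCACTA, and it was scored on both strands within 50 bp of each summit as a matrix, not as fixed letters. The sites below are the best matches at 7 pairs with a high weaker peak, picked separately within each orientation. The convergent pairs shown were not among the 10 pairs with the highest weaker peak of all. Sites are read 5′ to 3′ along the motif's own strand from the mm10 reference. The matched 20 bases are in capitals with 5 bases on each side. They are shown in 3 sets, because the orientation within a pair is the property the sites differ in.
Ercc1 left, minus strand, chr7:19342833-19342862: tcgtcTCTACCGCCAGGGGTCGCCTgcgcc
Ercc1 right, minus strand, chr7:19343631-19343660: taagcCTTGCCATTAGAGGGCGCGCctgaa
Ext2 left, minus strand, chr2:93822584-93822613: tcctcCTGTCCAGCAGGGGGCGCGGcgcta
Ext2 right, minus strand, chr2:93823754-93823783: taacaATATCCACGAGGTGGCGCTAaagta
Rpl14 left, plus strand, chr9:120601620-120601649: caacaCCTGCCACTAGGTGGTGCTCagatg
Rpl14 right, plus strand, chr9:120602981-120603010: ggctcACGGCCTGCAGGGGGCAGCAgtggg
Etv4 left, plus strand, chr11:101813433-101813462: gtgttGCCGCCACCAGGTGGCAGTGttggc
Etv4 right, minus strand, chr11:101814966-101814995: ctcccTCCACCACTAGGGGGCGCGCtctac
Tuba1c left, plus strand, chr15:98993190-98993219: cgcctGTAACCAGCAGGCGGCGCTGtcccc
Tuba1c right, minus strand, chr15:98994088-98994117: tcagaGTGTCCAGCAGATGGCGCCAcagct
Gnai2 left, minus strand, chr9:107644757-107644786: gctctGTGCCCGCCAGGGGGCGCCGctcct
Gnai2 right, plus strand, chr9:107645754-107645783: ggctaTTGACCACCAGAGGGCAGCAgaggc
Npas1 left, minus strand, chr7:16463403-16463432: tctccATCACCGGCAGGTGGAGCTGacggg
Npas1 right, plus strand, chr7:16465304-16465333: cagatGCTACCACCAGGTGGCAGCAcaaag
The Ercc1, Ext2 and Rpl14 pairs had both motifs on the same strand, the Etv4 and Tuba1c pairs were convergent, and the Gnai2 and Npas1 pairs were divergent, with the motifs pointing away from each other. Each pair is named after the gene it lies in or whose start is nearest.

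The pair at Ercc1, a gene of nucleotide excision repair, had the highest weaker peak of all pairs. Its summits were 799 bp apart, and the peak signal, the authors' enrichment value, was 680 at the left summit and 627 at the right. In pool I the left and right signals were 390 and 370, and in pool J they were 290 and 258. The left peak was therefore the higher in both pools.

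At Ext2, whose protein helps build heparan sulfate, the left summit lay 44 bp from a transcription start site (TSS) of the gene and the right summit 1170 bp from it. The 2 summits had signals of 357 and 358 in pool I and of 279 and 247 in pool J, so their order differed between the pools. At the intergenic pair nearest to Rpl14, a ribosomal protein gene, the signals were 399 and 360 in pool I and 276 and 242 in pool J. The left summit was the higher in both pools.

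The convergent pair nearest to Etv4, an ETS transcription factor gene, had signals of 386 and 346 in pool I and of 280 and 231 in pool J. The convergent pair nearest to Tuba1c, an alpha-tubulin gene, had 395.1 and 334 in pool I and 276 and 223 in pool J. At both loci the left summit was the higher in both pools.

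The divergent pair near Gnai2, the gene of an inhibitory G protein alpha subunit, lay between genes, and its right site had the highest motif score of the sites printed, 24.4 against 16.3 at the left. The left summit nevertheless had the higher signal, with 399 against 353 in pool I and 296 against 238 in pool J. The divergent pair in an intron of Npas1, which encodes a bHLH-PAS transcription factor, had near-equal summits, with 354 and 349 in pool I and 244 and 237 in pool J.

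Of the 10 pairs with the highest weaker peak, 9 had a motif match at both summits, 7 of them on the same strand and 2 divergent. None of the 10 was convergent. Over all 3408 pairs, 1956 had 2 matches, of which 56.9% were on the same strand, 25.5% divergent and 17.6% convergent. With so few pairs, the lack of a convergent pair was not read as a difference from that share. The other pairs of this set lay near Napg, in introns of Mvb12b and Tjp1, between Rnase12 and Olfr750, and near Eef2, where only the right summit had a match. The 2 pools ranked the 2 summits in the same order in 6 of these 10 pairs. The share was 91.7% over the 3297 pairs with separate peaks in both pools. It was 78.8% in pairs whose signals were under 1.5-fold apart, as these 10 were. Of the 20 summits, 12 were intergenic, against 37.4% of all autosomal intervals with a single summit.

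Summit distances among members ran from 199 to 2000 bp, with a median of 1147 bp and quartiles of 775 and 1531 bp. For the 36458 other autosomal intervals, the nearest summit was a median of 12771 bp away. At the 2000 bp threshold, 288 members had a neighbour at 1901 to 2000 bp and 342 peaks had one at 2001 to 2100 bp. Their median signals were 314 inside and 264 outside the threshold, and 75.3% and 75.4% of them had a motif match. In bins of 100 bp from 2001 to 2500 bp, the median signals ran from 264 to 322, and the 314 inside lay within that range. The share at promoters was 14.2% inside and 11.4% outside.

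Few pairs had summits 300 to 400 bp apart. Summits were under 300 bp apart in 166 of the 3408 pairs (4.87%), then 9 pairs lay from 300 to 399 bp and 53 from 400 to 499 bp, and 3180 from 500 to 2000 bp. The 2 intervals of a pair overlapped in 145 of the 166 close pairs and in 16 of the 3242 pairs at 300 bp or more.

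**Figure D1:**
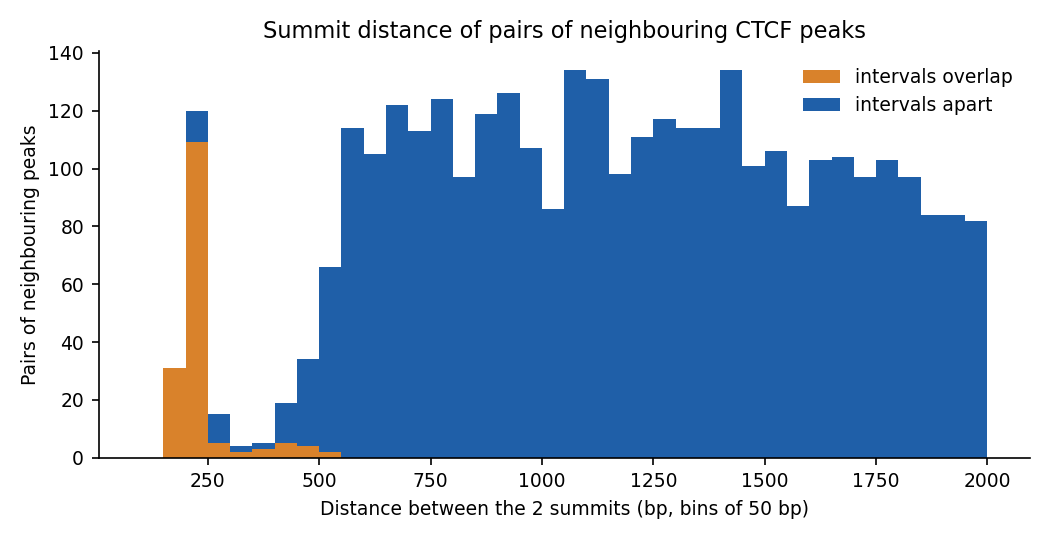
Distance between the 2 summits of each pair of neighbouring peaks (x axis, bp, in bins of 50 bp) against the number of pairs (y axis), with pairs whose intervals overlap in orange and the others in blue. A narrow group of 166 pairs, most with overlapping intervals, lies under 300 bp; only 9 pairs lie from 300 to 399 bp, and 3180 lie at 500 bp or more.

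Many close pairs were not separate in the pools. In 109 of the 166 close pairs, both summits had been matched to the same peak of pool I or of pool J in the authors' ranked table of both pools, against 2 of the 3242 wider pairs. In 60 of the 166, both summits lay inside a single interval of a pool's own list, against 10 of the wider pairs. Over all distances, 70 of 3408 pairs (2.05%, 95% interval 1.60 to 2.59) lay inside a single interval of a pool.

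Of the 331 members with a summit under 300 bp away, 118 (35.6%, 30.5 to 41.1) had a motif match, against 76.0% of members at 300 bp or more and 76.8% of all autosomal intervals with a single summit. A promoter held 109 of the 331 (32.9%, 27.9 to 38.3), against 17.6% of the members at 300 bp or more and 12.2% of all such intervals. In the combined list, the stronger summit of a close pair had a median of 5.51 times the signal of the weaker, against 1.77 times in wider pairs, and 51 of the 166 close pairs (30.7%) differed by over 10-fold. The 57 close pairs with separate peaks in both pools had pool ratios near those of wider pairs, with medians of 1.73-fold in pool I and 2.08-fold in pool J, against 1.68-fold and 2.01-fold. Where a close pair had a match at only 1 of its summits, that summit was the stronger in 85 of 87 pairs. Some values below are also given for members at 300 bp or more.

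The intron of Jarid2, which encodes a partner of Polycomb repressive complex 2, held a pair of the smallest distance found, 199 bp. The sequence below spans both summits of this pair with 40 bases on each side, on the plus strand of mm10, and is shown because a single match, in capitals, lies beside the left summit and none at the right.
Jarid2, chr13:44733514-44733793: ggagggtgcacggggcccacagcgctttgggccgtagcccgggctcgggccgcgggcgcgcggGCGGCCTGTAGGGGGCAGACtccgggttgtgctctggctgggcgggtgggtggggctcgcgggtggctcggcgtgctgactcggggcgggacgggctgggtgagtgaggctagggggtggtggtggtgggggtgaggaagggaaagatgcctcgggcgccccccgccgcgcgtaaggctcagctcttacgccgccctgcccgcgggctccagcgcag
The left and right signals were 188 and 122 in pool I and 102 and 29.5 in pool J, and the left summit was the higher in both. In all, 31 pairs were 199 bp apart, and 28 of them had both summits matched to the same peak of a pool. The 5 named here had the highest weaker peaks among the 31, and 2 of these 5 shared a pool peak. The other 4 of the 5, near Ifnz and Rsph1, in Ugt1a6a and at the Fam234a promoter, had overlapping intervals. Only the left summit near Rsph1 had a match among these 4 pairs.

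A motif match was found at 4807 of 6502 members (73.9%, 72.8 to 75.0). The share over all 42960 autosomal intervals with a single summit was 76.8%, and it was 76.9% (76.5 to 77.3) over the other peaks once the peaks used to learn the motif were left out. Without the close members, the share of members was 76.0% (74.9 to 77.1). Peaks with a neighbour at 2 to 10 kb, none of which was used to learn the motif, had a higher share, 78.0% (77.4 to 78.7). The threshold was passed by 0.925% of flanking windows of the same length beside isolated peaks on autosomes not used for learning. At the midpoint between paired summits at least 600 bp apart, a match was found in 45 of 3000 pairs (1.5%, 1.10 to 2.00).

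Motif shares differed more between annotation classes than between members and other peaks. At promoters 46.0% (43.1 to 48.9) of members and 49.1% (47.5 to 50.6) of other peaks had a match. In introns the shares were 79.3% and 80.2%, and between genes 82.6% in both groups. Over all classes and with the close members counted, members had a lower share than other peaks on 17 of 19 autosomes. This was not recounted without the close members or by class. The other peaks in these class and autosome shares include the 1000 strong peaks on odd autosomes used to learn the motif.

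Both summits had a match in 1956 of 3408 pairs (57.4%, 55.7 to 59.1), a single summit in 1120 (32.9%, 31.3 to 34.5) and neither in 332 (9.74%, 8.77 to 10.8). Adjacent summits 2 to 10 kb apart had a match at both in 61.7% and at neither in 5.56%. For pairs at 300 bp or more the shares were 59.9% and 8.27%. At 300 bp or more, the share with a match at neither was therefore above that of farther neighbours, and their intervals did not overlap. This share was 10.1% (8.42 to 12.1) for summits over 500 and up to 1000 bp apart. It was 7.37% (5.92 to 9.05) up to 1500 bp and 6.98% (5.44 to 8.80) above that. These last intervals overlapped that at 2 to 10 kb (5.11 to 6.03). Both summits lay at a promoter in 10.7% of pairs at 300 bp or more, against 1.73% at 2 to 10 kb. The share with a match at neither was not recounted by class.

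In pairs with 2 matches, 1113 of 1956 (56.9%, 54.7 to 59.1) had both motifs on the same strand, 499 (25.5%, 23.6 to 27.5) were divergent and 344 (17.6%, 15.9 to 19.4) were convergent. Same-strand pairs divided into 531 with both motifs on the plus strand and 582 on the minus strand.

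Orientation changed with distance between neighbours, and the neighbours within 2 kb were close to those at 2 to 10 kb. The same-strand share was 54.9% (53.7 to 56.2) for summits 2 to 10 kb apart, then 52.8% for 10 to 50 kb, and 52.5% (51.3 to 53.7) above 50 kb. The convergent share was 17.6% within 2 kb and at 2 to 10 kb, then 20.7% at 10 to 50 kb and 30.0% (28.9 to 31.1) above 50 kb. The divergent share was 27.5%, 26.5% and 17.5% in the same 3 farther ranges. Convergent pairs were thus fewer than divergent pairs within 50 kb and more numerous beyond it.

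**Figure D2:**
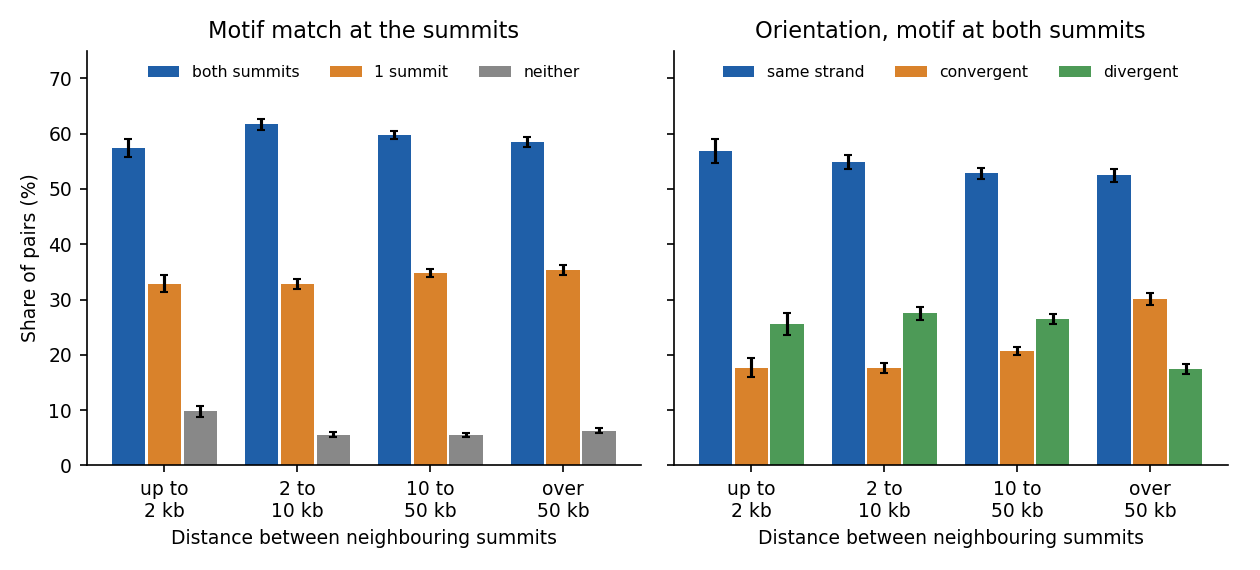
Share of pairs of adjacent summits (y axis, %) by their distance (x axis), with exact 95% intervals as error bars: left, pairs with a motif match at both summits, at 1 or at neither; right, the orientation of pairs with a match at both. The convergent bars stand at 17.6% within 2 kb and at 30.0% above 50 kb, and the same-strand bars stay between 52.5% and 56.9%.

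Between 500 bp and 2 kb the same-strand share varied little with distance. The same-strand share was 55.5% (51.6 to 59.3) for summits over 500 and up to 1000 bp apart, 55.5% over 1000 and up to 1500 bp, and 59.8% (55.7 to 63.8) above that, with overlapping intervals. The median spacing between the 2 motifs was 1226 bp in same-strand pairs, 1126.5 bp in convergent pairs and 1263 bp in divergent pairs. The weaker peak had a median signal of 209 in same-strand, 182 in convergent and 203 in divergent pairs.

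Repeated sequence made up few of the pairs. Windows of 301 bp around the 2 summits aligned over at least 100 columns at 80% identity or more in 25 of 3242 pairs at 300 bp or more (0.771%, 0.4996 to 1.14), against 32 of 9839 adjacent summits at 2 to 10 kb (0.325%, 0.223 to 0.459). The copies lay in the same direction in 19 of the 25. Without alike pairs, and at 300 bp or more, the same-strand share was 56.6% (54.4 to 58.9) of 1926 pairs.

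An inverted pair of this kind lay in an annotated intron of Ins2, an imprinted insulin gene. Its 2 summits were 829 bp apart, and the stretches below were 96.1% identical over 155 columns. They are shown because the copies carry their motif matches, in capitals, in opposite directions on the chromosome, which makes the pair convergent. The left copy is on the plus strand and the right copy on the minus strand.
Ins2 left, chr7:142737011-142737165: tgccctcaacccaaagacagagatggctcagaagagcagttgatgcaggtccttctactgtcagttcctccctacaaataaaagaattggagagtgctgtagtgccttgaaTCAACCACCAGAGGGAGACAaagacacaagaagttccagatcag
Ins2 right, chr7:142737930-142738084: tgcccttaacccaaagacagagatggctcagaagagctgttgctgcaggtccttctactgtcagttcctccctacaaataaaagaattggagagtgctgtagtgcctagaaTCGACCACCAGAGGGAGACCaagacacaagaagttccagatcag
The left and right signals were 336 and 293 in pool I and 181 and 145 in pool J. The left copy was the higher in both pools, and the motif scores were 16.03 and 15.8. Reads from near-identical copies may be placed at either, so the division of signal between these 2 copies is uncertain.

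The median signal differed little between members and other peaks. Members had a median of 276 (quartiles 143 and 460, range 9.12 to 724), against 269 at other peaks. The difference of the median log2 signals was 0.04, and it was 0.02 in pool I and 0.11 in pool J. Members at 300 bp or more stood 0.11 above other peaks on this scale. With summits at most 1000 bp apart, against the 40349 peaks with a farther neighbour, the direction turned, to -0.16. The set within 1000 bp holds all 331 members with a summit under 300 bp away, whose median signal was 103. In bins of 100 bp from 501 to 1000 bp, the median signals ran from 262 to 299. Members had the higher median on 14 of 19 autosomes. The other peaks cover all farther distances, and their median signal fell with distance. It was 288 with a neighbour at 2 to 10 kb, 265 at 10 to 50 kb and 229 above 50 kb. The median of all members therefore lay below that of peaks with a neighbour at 2 to 10 kb. Members at 300 bp or more, with a median of 290, were close to those peaks.

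Within pairs the stronger peak had a median signal of 426 and the weaker 166, and the median ratio was 1.81-fold. Over the 3297 pairs matched to separate peaks in both pools, the median ratio was 1.68-fold in pool I and 2.01-fold in pool J, so pool J spread the 2 summits farther apart. The same summit was the stronger in both pools in 3024 of the 3297 pairs (91.7%, 90.7 to 92.6). Adjacent summits farther apart kept their order in 92.6% to 93.3%, so the share within 2 kb was near that of other neighbours.

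The order held where the 2 summits differed clearly. In pairs under 1.5-fold apart in the combined list, 1008 of 1279 (78.8%, 76.5 to 81.02) had the same stronger peak in both pools. Above 1.5-fold, 2016 of 2018 did. Of 1825 pairs over 1.5-fold apart in both pools, 0 were in opposite order, which allows a share of up to 0.164% by the limit of 3 counts. The log2 ratio of the right over the left peak correlated between the pools at r = 0.968 (Spearman's rho = 0.967) over the 3297 pairs. The points share the 2 pools' libraries, and the list keeps only peaks ranked alike in both.

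**Figure D3:**
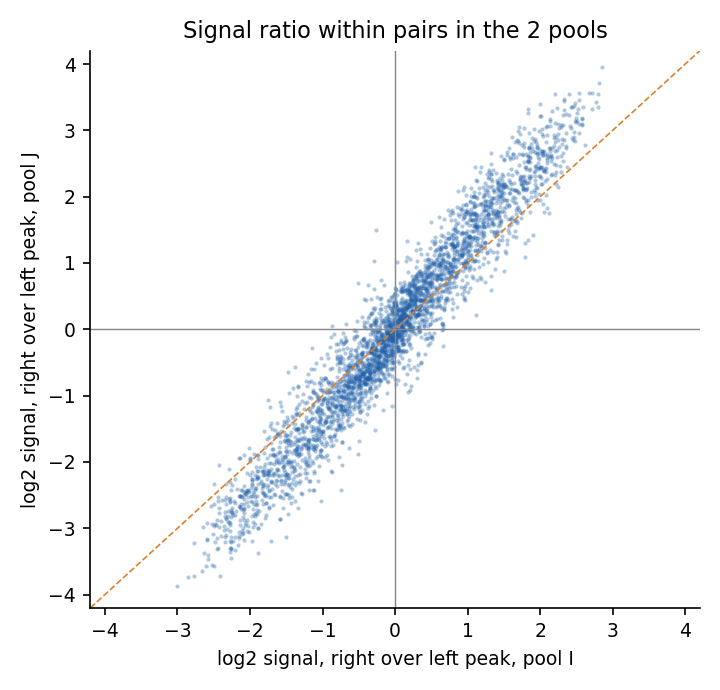
Log2 ratio of the right over the left peak's signal in pool I (x axis) and pool J (y axis) for the 3297 pairs matched to separate peaks in both pools, 1 point per pair, with equal ratios on the dashed line. The points run from lower left to upper right and are steeper than the dashed line, which goes with the median ratios of 1.68-fold in pool I and 2.01-fold in pool J.

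The 2 exceptions above 1.5-fold were named after their values were seen. At Mettl22 the left and right signals were 112 and 61.2 in pool I and 24.4 and 25.2 in pool J. In the other pair, near Lrrc8c, the left summit had a combined signal of 19.001 but was matched to the same pool peaks as its neighbour 199 bp away, with 191 in pool I.

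The motif score went with the stronger summit in most pairs, but not in all. In pairs with a single match, the stronger summit held it in 786 of 1120 (70.2%, 67.4 to 72.8), or 67.9% at 300 bp or more. The same share was 66.2% to 66.9% at farther neighbours. In pairs with 2 matches, the stronger summit had the higher score in 1169 of 1956 (59.8%, 57.6 to 61.95), against 60.3% to 60.6% farther away.

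Promoters held a larger share of members than of other peaks. A summit within 1000 bp of an annotated TSS was found for 1192 members (18.3%, 17.4 to 19.3), against 12.2% of all autosomal intervals with a single summit and 11.1% (10.7 to 11.4) of other peaks. The share was higher on all 19 autosomes and was 17.6% at 300 bp or more. Introns held 38.9% of members, where the share over all intervals was 45.8%. Intergenic summits made up 37.5% of members and 37.4% of all intervals.

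**Figure D4:**
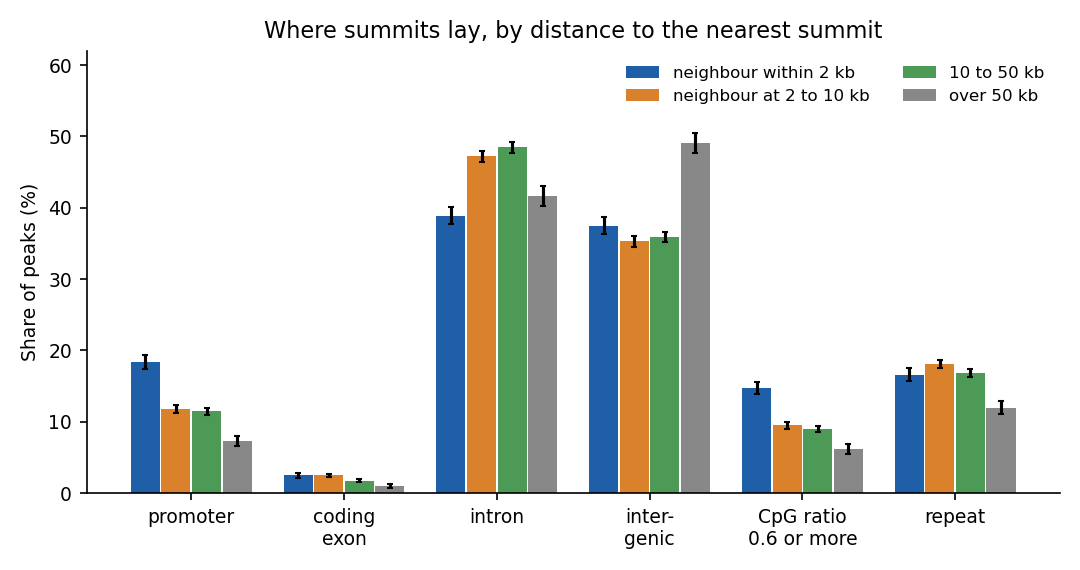
Share of peaks (y axis, %) in each annotation or sequence class (x axis), for 4 ranges of distance to the nearest summit (colours), with exact 95% intervals as error bars. The promoter bars fall from 18.3% within 2 kb to 7.26% above 50 kb, and the bars for a CpG ratio of 0.6 or more fall from 14.7% to 6.20%.

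CpG-rich sequence was more frequent at members too. The ratio of observed to expected CpG in 301 bp was 0.6 or more at 958 members (14.7%, 13.9 to 15.6), against 9.74% of all intervals and 8.85% of other peaks. Repeats were at the background share: 50% or more of the 101 bp around the summit was marked as repeat at 16.6% of members and 16.7% of all intervals. A ranked summit below the threshold lay 400 to 2000 bp away for 23.3% of members and 22.7% of all intervals. This share was 26.2% for peaks with a neighbour at 2 to 10 kb and 14.3% for those above 50 kb. A pool J peak overlapped 97.4% (97.001 to 97.8) of members and 96.9% of all intervals.

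Pairs at promoters often had a TSS between their summits, which the promoter window itself favours. Both summits lay at a promoter in 398 of 3408 pairs (11.7%, 10.6 to 12.8), against 1.73% of adjacent summits at 2 to 10 kb, and the window of 1000 bp itself favours short pairs. A TSS lay between the summits in 294 of these 398 pairs (73.9%, 69.3 to 78.1) and in 445 of all pairs (13.1%). Among the 870 pairs with a promoter summit, the share was 51.1% (47.8 to 54.5). Choosing summits within 1000 bp of a TSS makes a TSS between them likely, and no expected share was computed. The share with both at a promoter was 17.8% for pairs over 500 and up to 1000 bp, 8.43% up to 1500 bp and 3.92% above that. Both summits were intergenic in 1154 pairs and intronic in 1110.

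Most members occurred as simple pairs, but some formed longer chains of summits, each within 2 kb of the next. There were 2753 groups of 2, 262 of 3, 35 of 4, 4 of 5 and 2 of 6 summits. Across autosomes, members made up from 11.3% of peaks on chromosome 18 to 17.7% on chromosome 11.

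The 2 groups of 6 summits lay in an intron of Rbfox3, which encodes the neuronal nuclear protein NeuN, and in the intergenic region nearest to Tmem121. The Rbfox3 group spanned 4981 bp, with signals from 175 to 599 and matches at 5 summits, 4 of them on the minus strand. Its highest summit had 348 in pool I and 251 in pool J, and the lowest by the combined signal had 95.0 and 62.7. Tmem121 flanks the immunoglobulin heavy chain locus, whose 3′ end is known for an array of CTCF-binding elements. The group nearest to it spanned 5285 bp, with signals from 181 to 575, and its 5 matches were all on the plus strand.

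In the intron of Vgll4, which encodes a cofactor of TEAD transcription factors, 5 summits had matches, the first on the minus and the next 4 on the plus strand. The 5 summits at the promoter and in an intron of Fat1, an atypical cadherin gene, had no match at all. Their signals ran from 16.7 to 495, and the 2 summits 200 bp apart were matched to the same pool peaks. At Sorcs2, a sorting receptor gene, 4 of 5 summits had matches, 3 of them on the minus strand, and the summit 70 bp from a TSS had 229 in pool I and 206 in pool J. Near Lrrc8c, a gene of a volume-regulated anion channel, 3 of 5 summits had matches.

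The 4 groups of 4 named here held the highest peaks among the 35 of that size. Tandem groups of 4 lay in an intron of Ksr2, a scaffold of the MAP kinase pathway, with all 4 motifs on the plus strand, and near Myzap, with all 4 on the minus strand. The Ksr2 summits had 306, 236, 374 and 332 in pool I and 154, 131, 287 and 178 in pool J. The third summit was the highest and the second the lowest in both pools. The group nearest to Scarb1, the gene of a high-density lipoprotein receptor, had 3 motifs on the minus strand and 1 on the plus strand, and the summit with the plus-strand motif had the lowest signal, 120. Near Tcea2, a transcription elongation factor gene, 2 of 4 summits had matches, and the highest, 630, lay 1347 bp from a TSS.

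**Figure D5:**
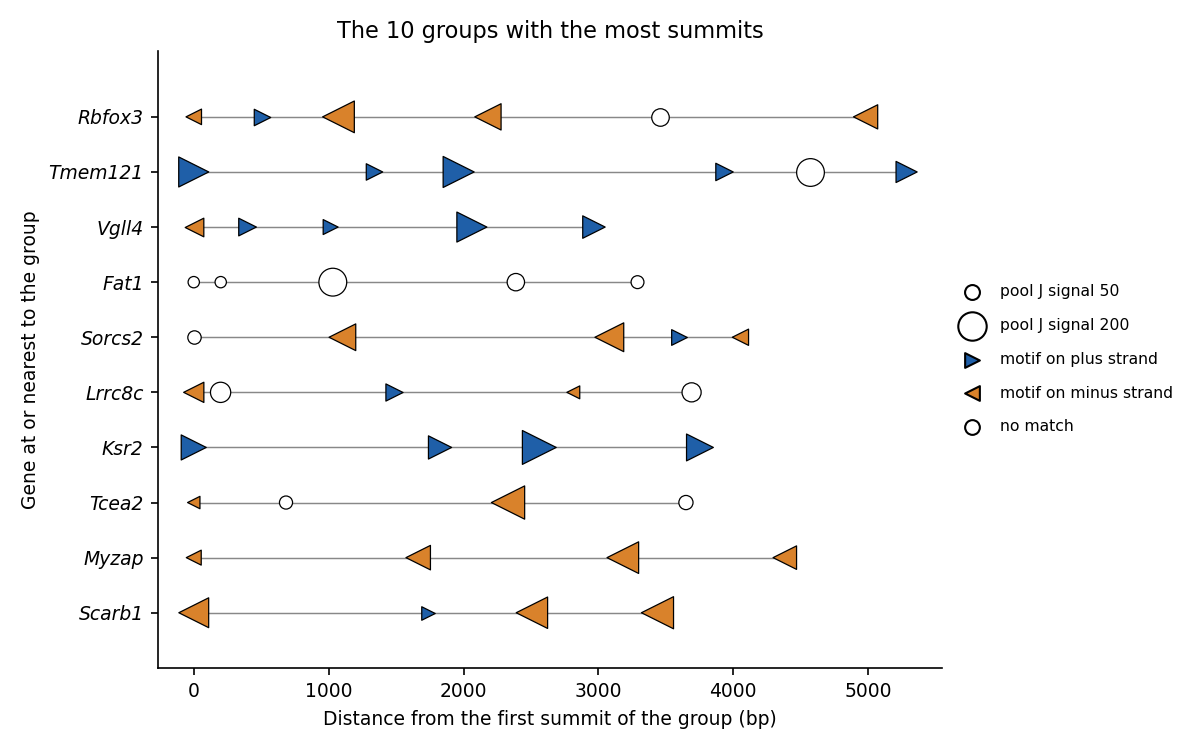
The 10 groups with the most summits, with ties among the 35 groups of 4 broken by the highest signal, 1 per row and named after the gene at or nearest to them, with each summit at its distance from the group's first summit (x axis, bp). Triangles point along the strand of a motif match, circles mark summits with no match, and the area of a symbol grows with the signal in pool J. The Ksr2 and Myzap rows hold 4 triangles pointing the same way, and the Fat1 row holds 5 circles.

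Gene lists were read by how many of their autosomal genes had a pair within 10 kb of a TSS. The background was 8.95% of 20779 protein-coding genes and 5.56% of 9413 lncRNA genes. Genes that share a locus share their pairs, and lists differ in how densely their genes are packed.

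Imprinted genes, expressed from a single parental copy, had a pair at 8 of 54 (14.8%, 6.62 to 27.1), namely Ins2, Grb10, Phlda2, Igf2, Meg3, Mcts2, H19 and Mest. Upstream of H19, whose imprinting control region is known to bind CTCF on the maternal copy, the summits lay 2148 and 2637 bp from its TSS. They had 81.3 and 144 in pool I and 45.5 and 79.6 in pool J, so the right summit was the higher in both. Their best motif scores of 7.35 and 8.03 fell below the threshold of 8.93, so the pair counted as having no match.

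The pair beside Igf2, a growth factor gene, had both motifs on the minus strand, with 159 and 311 in pool I and 80.7 and 190 in pool J. At Grb10, an adaptor of insulin receptor signalling, an intronic pair also had both on the minus strand, with 299 and 240 in pool I and 175 and 137 in pool J. The pair beside Phlda2 had 224 and 305 in pool I and 126 and 175 in pool J. Each of these 3 pairs kept its order between the pools.

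Inside the noncoding gene Meg3, a convergent pair had 140 and 237 in pool I and 73.3 and 146 in pool J. The same-strand pair near Mcts2 had 111 and 366 in pool I and 48.0 and 232 in pool J, and the right summit stood far above the left in both. At the Mest promoter, neither summit had a match, and the signals were 190 and 65.6 in pool I and 84.6 and 32.5 in pool J.

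Genes induced by neuronal activity had a pair at 10 of 25 (40.0%, 21.1 to 61.3): Junb, Dusp1, Fosb, Egr1, Gadd45b, Jun, Klf4, Egr3, Egr2 and Atf3. The Junb pair had both motifs on the plus strand, with 324 and 301 in pool I and 183 and 201 in pool J, so its order differed between the pools. At the promoter of Dusp1, a MAP kinase phosphatase gene, neither summit had a match, and the signals were 275 and 315 in pool I and 122 and 183 in pool J.

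Genes of CTCF, cohesin and their partners had a pair at 3 of 22 (13.6%, 2.91 to 34.9). The Adnp pair was divergent, with 340 and 299 in pool I and 246 and 175 in pool J. At the promoter of Stag1, a cohesin subunit gene, the right summit, 42 bp from a TSS, had 372 in pool I and 288 in pool J, and the left had 83.3 and 43.3. The pair at Nipbl, the cohesin loader gene, had 281 and 67.6 in pool I and 128 and 23.2 in pool J.

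Ribosomal protein genes had a pair at 16 of 76 (21.1%, 12.5 to 31.9), at 15 separate pairs. Strong pairs lay near Rpl37a and at Rpl38. At Rpl38 both summits were at the promoter, with 213 and 240 in pool I and 190 and 118 in pool J, so their order differed between the pools.

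For the brain cell type lists, the counts were small and the intervals wide. Synaptic adhesion and scaffold genes had a pair at 4 of 29 (13.8%, 3.89 to 31.7), among them Dlgap1 and Lrrtm1. The Dlgap1 pair had both motifs on the plus strand, with 320 and 288 in pool I and 201 and 157 in pool J. Excitatory neuron genes had a pair at 3 of 17, namely Cux2, Cux1 and Slc17a7, and inhibitory neuron genes at 1 of 17, Sst. Near Sst, the somatostatin gene, both motifs were on the minus strand, with 280 and 326 in pool I and 166 and 237 in pool J.

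The oligodendrocyte lineage had a pair at 1 of 13 genes, Pdgfra, whose 2 summits had 311 and 269 in pool I and 163 and 201 in pool J. Microglia had a pair at 1 of 12, near the complement gene C1qb. Astrocyte and liver genes each had a pair at 0 of 12, which allows a share of up to 25% by the limit of 3 counts (exact upper bound 26.5%). Clustered protocadherin genes had a pair at 7 of 56, at 4 separate pairs, all in the alpha array. The pair at Pcdha6 had 118 and 113 in pool I and 50.8 and 49.6 in pool J.

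The alpha-globin genes Hba-a1, Hba-a2 and Hba-x shared a single convergent pair, 3 of 7 globin genes, and its right summit, 21 bp from a TSS of Hbq1b, had 266 in pool I and 185 in pool J. Hox genes had a pair at 1 of 39, Hoxd13. Olfactory receptor genes had a pair at 3 of 1086 (0.276%, 0.0570 to 0.805), which was below the background of protein-coding genes. The pair between Rnase12 and Olfr750 had 358 and 366 in pool I and 238 and 233 in pool J, and its order differed between the pools.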

How the data were processed

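CTCF immunoprecipitates of 2 pools were analysed from 7 deposited peak lists in mm10 coordinates, per the labels. Neither aligner nor peak caller nor its normalization is given in the sources used here, and the lists hold no counts, so the sequencing depth is unknown. The deposited score of a peak was read as a scaled IDR, with a lowest value of 540, the deposited signal is the authors' enrichment value per peak, with its scale not stated, and −log10 of the IDR in the authors' ranked table gave the stricter threshold. The values of pool I and pool J were read from that ranked table, where each peak was matched by the authors to a peak of each pool.

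Here the nearest summits were found on the deposited positions, and no peak of 44672 passed the end of its chromosome in the mm10 reference. A 20 bp weight matrix was learned from 1000 strong isolated peaks on odd autosomes, with the threshold passed by 1% of their flanks (Python 3.11.15, numpy 2.4.6, SciPy 1.17.1, Biopython 1.88). Annotation was GENCODE vM21. The neighbour search and scan were tested on simulated data. Overlap means 1 bp or more.

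Named loci were the 10 largest groups, the 10 pairs with the highest weaker peak, the 5 closest pairs, up to 3 genes per list by weaker signal (imprinted genes in full) and pairs for printed sequences. Members, lists and rules were chosen with earlier results of these data known. The alternatives tried changed the distance, the IDR, the peak list, the motif rule, the promoter window and the overlap. Chromosome X and multi-summit intervals were left out by the rule. Some named loci are not reported here.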

Additional observations from a re-analysis of the deposited data

How the results depend on the processing

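Of 59 recomputed values, 28 stayed within the counting interval or the spread between pools, and the same-strand share did so under every alternative run for it. With summits at most 1000 bp apart, the motif share was 70.0%, pairs with 2 matches 53.2%, promoters 22.7% and pairs inside a single pool interval 5.29%. The log2 signal difference, taken against the peaks whose nearest summit lay beyond the changed distance, turned to -0.16. With at most 5000 bp the same values, in this order, were 76.1%, 60.0%, 14.8%, 0.876% and 0.13. At an IDR of at most 0.01, pool J peaks overlapped 98.4% of members. Among intervals that do not overlap, the motif share was 75.7%, pairs with 2 matches 59.6%, pairs inside a pool interval 0.246% and the signal difference 0.10. With summits 300 bp or more apart, an alternative chosen after seeing the data, they were 76.0%, 59.9%, 0.308% and 0.11. In the optimal list, the motif share was 70.9%, pairs with 2 matches 53.4%, promoters 19.4% and pool J overlap 92.8%. The stricter motif threshold gave 45.6% of members (48.4% of other peaks) and 24.1% of pairs, a window of 25 bp 63.5% (67.8%) and 42.8%, and 100 bp a member share of 75.1% (78.1%). These motif shares of other peaks include the peaks used to learn the motif. Promoter windows of 500 and 5000 bp gave 12.5% (other peaks 8.03%) and 38.7% (25.8%). Asking for 50% of the peak lowered the pool J overlap to 89.9%. Where counts changed, the cause was not tested beyond what each rule leaves in.

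No paired analysis was possible because the lists give values per pool and not per library, and the 2 pools were not compared as groups. Leaving out a pool was not run, since a peak enters the list only through both. The lists hold no read counts, no allele and no control values, so depth limits could not be given.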
